A study of Mus musculus with 20 samples.

Results

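Bile acids are made in hepatocytes from cholesterol, conjugated, pumped into bile, taken up again from the gut and returned to the liver, where they switch off their own synthesis. The classical route of synthesis begins with the hydroxylase Cyp7a1, and an alternative route runs through Cyp27a1 and Cyp7b1. The receptor FXR, encoded by Nr1h4, senses bile acids and induces the small heterodimer partner SHP, encoded by Nr0b2, which represses Cyp7a1 and Cyp8b1. The results below describe 10 genes of this system (of 27962 gene names on the array; 13 of its 41174 probes that were not controls), chosen by name to cover synthesis (Cyp7a1, Cyp8b1, Cyp27a1, Cyp7b1), conjugation (Baat), uptake (Slc10a1), export into bile (Abcb11, Abcb4) and control (Nr0b2, Nr1h4). The choice was made with earlier results of these data known. A probe was taken where the files' gene name, or the current symbol of its accession, was that of a member. Each gene was read by its brightest probe over the liver arrays.

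The groups WT(HFD) and CD44KO(HFD) each gave RNA from liver and from white adipose tissue (WAT), with 5 arrays for each genotype and tissue and 20 in all. All mice were C57BL/6 males aged 7 months that had been given a high fat diet (HFD, 35% fat in the labels) for 21 weeks, and no group on normal chow was arrayed. The CD44KO mice lack the hyaluronan receptor CD44 in every cell and came from a line made elsewhere and backcrossed onto C57BL/6J. Whether the WT mice were littermates is not given in the sources used here.

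The question in both tissues was how the loss of CD44 changed gene expression in mice on the HFD. Values are levels on the log2 scale after subtraction of the 75th percentile of the array. On this scale 0 is the 75th percentile and a difference of 1 is a doubling. A level is comparable between arrays for 1 probe but not between probes. Summed levels, given for marker lists, add the linear levels of the same probes on every array and weigh most on the brightest of them. A probe was tested where 3 or more of the 5 arrays of either genotype had it well above background, and "called" means an adjusted p under 0.05 by limma over all probes tested. In liver the 75th percentile lay between 432.7 and 574.6 intensity units, and 57.4% to 61.9% of the spots were well above background. In WAT that share was 63.2% to 69.5% on 9 arrays and 89.5% on WT replicate 1, which therefore stood apart and raised the levels of dim probes. Each library labelled CD44KO lacked most of the Cd44 signal. In liver the brightest Cd44 probe lay between 0.11 and 0.83 in WT and between -4.19 and -3.24 in CD44KO. Adipocyte genes marked the tissues as labelled: their summed linear level, in units of the 75th percentile, was 277 to 760 in WAT and 13.3 to 39.5 in liver, where Lep and Adrb3 were above background on no array.

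Of the 10 bile acid genes, 4 were called in CD44KO liver. Slc10a1, Cyp7b1 and Nr1h4 were higher and Abcb4 was lower. By comparison, 13.6% of all 24689 probes tested in liver were called, 7.85% higher and 5.75% lower, so a genotype difference was common in this tissue and the list is too short for its share to be read as particular to bile acid genes. The median log2 fold change of the 10 genes was 0.36, against 0.08 over all probes tested. The first is over brightest probes alone, while the second includes dimmer ones and further probes of the same gene. The genotypes did not overlap for Slc10a1, Nr1h4 and Abcb4, where 11.7% of all probes tested did not overlap. Every member was well above background on all 10 liver arrays, and none was saturated.

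**Figure D1:**
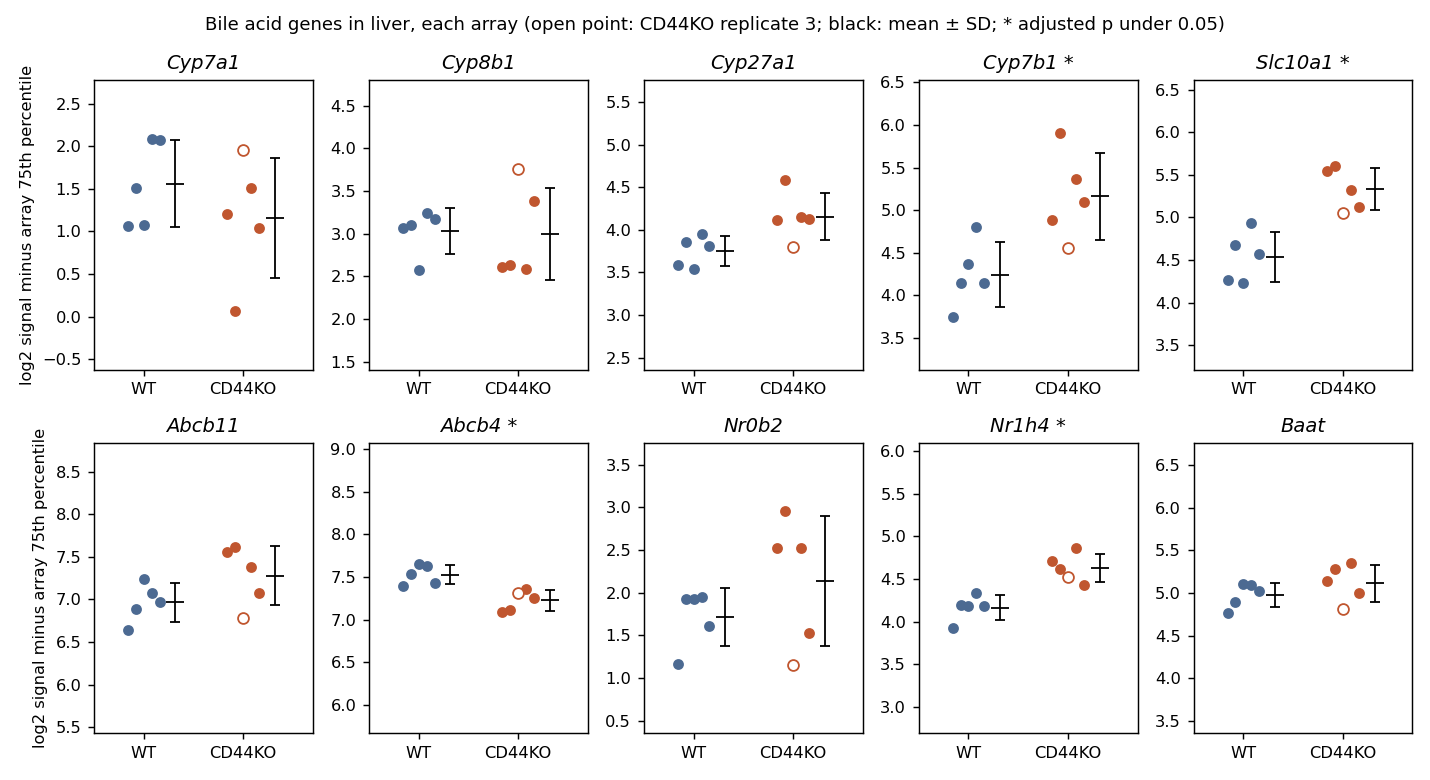
Level of each bile acid gene on every liver array, as log2 signal minus the 75th percentile of the array (vertical axes, all spanning the same range), for 5 WT and 5 CD44KO arrays, with mean ± SD in black and CD44KO replicate 3 as an open point. Slc10a1 and Nr1h4 sit higher in all 5 CD44KO arrays than in any WT array, Abcb4 sits lower, and the CD44KO arrays scatter most for Nr0b2 and Cyp7a1.

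Slc10a1 encodes NTCP, the sodium-dependent carrier that takes conjugated bile acids from portal blood into the hepatocyte. Its single probe was placed by the files at chr12:78923269-78923328 of build mm7, on the minus strand. The probes behind the uptake result and the bile phospholipid result are shown here because each level below is the hybridization to these 60 bases alone; no base is capitalized.
Slc10a1 probe: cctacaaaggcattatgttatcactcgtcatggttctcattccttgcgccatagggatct
Abcb4 brighter probe: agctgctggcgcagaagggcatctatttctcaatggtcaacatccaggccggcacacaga
Abcb4 dimmer probe: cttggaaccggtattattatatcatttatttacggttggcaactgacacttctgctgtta

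The level of Slc10a1 on the WT liver arrays was 4.27, 4.68, 4.23, 4.94 and 4.57, and on the CD44KO arrays it was 5.55, 5.60, 5.05, 5.32 and 5.12. The lowest CD44KO array thus stood above the highest WT array. The difference was 0.79 on the log2 scale (SE 0.16, n = 5 and 5), a 1.73-fold higher level, with an adjusted p of 0.0181 by limma and p = 0.0079 by the two-sided exact permutation test, the smallest that the 252 relabellings can give. Within the 3 slides the difference was 0.65, 0.66 and 1.32, the last from 1 array of each genotype. Slc10a1 was the only member called in each of the 10 fits that left out 1 liver array, with a highest adjusted p of 0.0462. The call was lost with normexp background correction (adjusted p = 0.0937 by limma) and in the fit of all 20 arrays (0.756), where the wide spread of its WAT levels enters the error, and over the other settings that kept all liver arrays the adjusted p of Slc10a1 lay between 0.00885 and 0.0446.

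Export into bile was measured through Abcb11, the bile salt export pump, and Abcb4, the phospholipid flippase whose product shields the bile ducts from bile salts. The level of Abcb4 in WT liver was 7.39, 7.54, 7.65, 7.63 and 7.43, and in CD44KO liver 7.09, 7.11, 7.31, 7.36 and 7.25. All CD44KO arrays lay below all WT arrays, but the step was small. Abcb4 fell by 0.30 on the log2 scale (SE 0.08), 1.23-fold, with an adjusted p of 0.0422 by limma and an exact permutation p of 0.0079. Its second probe lies 18152 bases away in mm7 (chr5:8978600-8978659, against chr5:8996752-8996811 for the brighter one). It gave -0.24 (SE 0.12, adjusted p = 0.194 by limma), with the genotypes overlapping. The Abcb4 call was lost in 9 of the 10 fits that left out 1 array, where the highest adjusted p was 0.0945. It was also lost with the slide as a block (adjusted p = 0.0507 by limma) and with the replicate number as a block (0.0696). The same held with normexp (0.0663), without the filter on dim probes (0.105) and in the fit of all 20 arrays (0.558).

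Abcb11 did not pass the test. Its level ran from 6.64 to 7.24 in WT, with a median of 6.97, and from 6.78 to 7.61 in CD44KO, with a median of 7.38, and the genotypes overlapped. The difference of 0.31 had a 95% interval of -0.06 to 0.69 and an adjusted p of 0.23 by limma. Abcb11 is a textbook target of FXR, which binds inverted repeats of its half-site. The 250 bases before its start on chr2:69342617-69342866 (minus strand, RefSeq, GRCm38.p6) are shown for the 1 stretch, in capitals, that has the letters AGGNCANTGACCT, and those before the start of Nr0b2 on chr4:133553126-133553375 (plus strand) for the 2 stretches with the letters TCAAGG, the core bound by LRH-1.
Abcb11 upstream: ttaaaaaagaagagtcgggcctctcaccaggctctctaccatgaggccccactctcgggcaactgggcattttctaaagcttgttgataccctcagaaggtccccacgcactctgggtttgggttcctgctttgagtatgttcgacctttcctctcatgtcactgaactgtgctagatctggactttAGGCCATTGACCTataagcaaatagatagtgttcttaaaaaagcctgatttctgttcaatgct
Nr0b2 upstream: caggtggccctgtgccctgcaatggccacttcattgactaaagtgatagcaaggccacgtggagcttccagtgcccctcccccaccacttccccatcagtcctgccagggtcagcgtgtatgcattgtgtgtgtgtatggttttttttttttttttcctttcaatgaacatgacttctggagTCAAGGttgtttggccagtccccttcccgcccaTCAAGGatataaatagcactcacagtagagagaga
Slc10a1 upstream: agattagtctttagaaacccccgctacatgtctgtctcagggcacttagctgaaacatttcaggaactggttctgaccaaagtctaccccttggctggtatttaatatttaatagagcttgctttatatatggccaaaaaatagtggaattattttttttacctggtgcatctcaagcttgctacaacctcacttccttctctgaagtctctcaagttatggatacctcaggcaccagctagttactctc

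The match in Abcb11 begins 63 bases before the start, and those in Nr0b2 begin 68 and 35 bases before it. Searched on both strands, AGGNCANTGACCT stood in 0.0335% of the 32851 windows of 250 bases in the RefSeq table and TCAAGG in 12.5%. N stands for any base. The first N leaves the first half-site open at the base where Abcb11 has C, and the other half-site has no open base. The share of 0.0335% is that of this pattern alone. The Slc10a1 window printed above (chr12:80968706-80968955, minus strand), shown because its gene changed, holds neither run of letters. The window before another start of Slc10a1 (chr12:80968080-80968329), not printed, holds neither as well. Windows were given for 7 of the 10 members, and neither run was found in those of the other members. A match is a run of letters and not a measured binding site.

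Of the control genes, the receptor itself was the one that was called. Nr1h4 in WT liver was at 3.93, 4.20, 4.18, 4.34 and 4.18, and in CD44KO liver at 4.71, 4.62, 4.52, 4.86 and 4.43. Again the lowest CD44KO array exceeded the highest WT array. Nr1h4 rose by 0.46 (SE 0.10), 1.38-fold, with an adjusted p of 0.0219 by limma and an exact permutation p of 0.0079, and the within-slide differences of 0.47, 0.42 and 0.54 were close together. The call held in 7 of the 10 fits without 1 array and reached an adjusted p of 0.0547 in the others (without WT replicate 2, CD44KO replicate 1 or CD44KO replicate 4). For Nr1h4 it was lost as well with normexp (adjusted p = 0.197 by limma), without the filter (0.0563) and in the fit of all 20 arrays (0.258). With the replicate number as a block it was also lost (adjusted p = 0.0522 by limma).

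Nr0b2, the FXR-induced repressor, gave no call and the widest spread of the control genes. Its levels were 1.16, 1.93, 1.93, 1.95 and 1.61 in WT and 2.53, 2.96, 1.15, 2.52 and 1.53 in CD44KO. CD44KO replicates 1, 2 and 4 stood above every WT array, and replicate 3 stood below every WT array. The mean difference was 0.42 (95% interval -0.32 to 1.16, adjusted p = 0.417 by limma). Over the fits that left out 1 liver array it ran from 0.21 (without CD44KO replicate 2) to 0.67 (without CD44KO replicate 3). Nr0b2 was called in none of them.

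In the alternative route of synthesis, Cyp7b1, the oxysterol 7-alpha-hydroxylase, showed the largest difference of the 10 genes. Its levels were 3.75, 4.14, 4.37, 4.80 and 4.15 in WT and 4.89, 5.91, 4.56, 5.36 and 5.10 in CD44KO. All 5 CD44KO arrays exceeded the WT mean, but CD44KO replicate 3 lay below WT replicate 4, so the genotypes overlapped. Cyp7b1 rose by 0.92 (SE 0.26), 1.89-fold, with an adjusted p of 0.0422 by limma and an exact permutation p of 0.016. Its call was lost in 8 of the 10 fits without 1 array, with adjusted p up to 0.0951 by limma. The call was also lost with normexp (adjusted p = 0.198 by limma), without the filter (0.089) and with the replicate number as a block (0.0607). The fit of all 20 arrays kept it (0.0288).

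Cyp27a1, the mitochondrial sterol 27-hydroxylase of the same route, missed the threshold. It ranged from 3.54 to 3.95 in WT, with a median of 3.81, and from 3.80 to 4.58 in CD44KO, with a median of 4.13. All 5 CD44KO arrays were above the WT mean. The difference was 0.40 (95% interval 0.09 to 0.72, adjusted p = 0.0817 by limma, exact permutation p = 0.032). The adjusted p was 0.0313 without CD44KO replicate 3 and 0.0456 with the slide as a block, and over the settings that kept all liver arrays it ran up to 0.465 (normexp).

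The classical route gave no call. Cyp7a1, its rate-limiting enzyme, was at 1.06, 1.51, 1.07, 2.09 and 2.07 in WT and at 1.20, 0.07, 1.96, 1.51 and 1.04 in CD44KO. CD44KO replicate 2 was far below all others, and CD44KO replicate 3 was near the top of WT. The difference was -0.40 (95% interval -1.17 to 0.37, adjusted p = 0.456 by limma), and the second probe gave -0.39 (adjusted p = 0.345 by limma). Cyp8b1, the 12-alpha-hydroxylase that sets the share of cholic acid, differed by -0.04 (95% interval -0.58 to 0.51, adjusted p = 0.937 by limma). Its levels were 3.07, 3.10, 2.57, 3.24 and 3.17 in WT and 2.61, 2.63, 3.76, 2.59 and 3.38 in CD44KO, which put 3 CD44KO arrays near the lowest WT array and the other 2 above every WT array. Its sign turned in 4 of the fits that left out 1 array. Baat, which joins bile acids to taurine or glycine, differed by 0.14 (95% interval -0.12 to 0.40, adjusted p = 0.444 by limma), with WT from 4.77 to 5.11 and CD44KO from 4.81 to 5.35, and 0.08 by its second probe (adjusted p = 0.55 by limma). The interval of Cyp7a1 holds a 2-fold lower level and that of Nr0b2 a 2-fold higher one, and a p that misses the threshold does not show that these genes were alike in both genotypes.

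**Figure D2:**
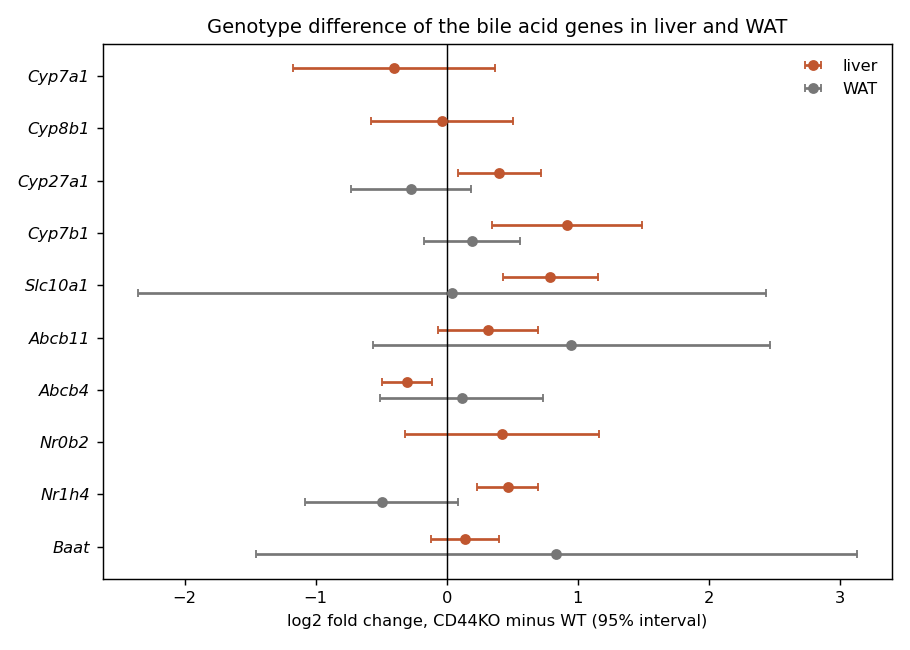
Log2 fold change, CD44KO minus WT, of each bile acid gene in liver (orange) and in WAT (grey), with the 95% interval as bars. Cyp7a1, Cyp8b1 and Nr0b2 have no WAT point because they were not tested there. In liver the intervals of Slc10a1, Nr1h4, Cyp7b1, Cyp27a1 and Abcb4 leave out 0, and in WAT all 7 intervals hold 0.

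CD44KO replicate 3 took an end place among the CD44KO arrays for several members: lowest for Slc10a1 (5.05), Cyp7b1, Cyp27a1, Abcb11, Nr0b2 and Baat, and highest for Cyp7a1 and Cyp8b1. Since SHP represses Cyp7a1 and Cyp8b1, the levels of Nr0b2 were set against those of the 4 synthesis enzymes and Baat over the 10 liver arrays, a choice made after the values were seen. The permutation p values below therefore describe a pattern already seen on these arrays and do not test it. How many other probes run as closely with Nr0b2 was not computed. Nr0b2 and Cyp8b1 ran in opposite order, with Pearson r = -0.78 (permutation p = 0.0079, 0.016 after adjustment over the 5 relations) and Spearman rho = -0.64 (p = 0.056 by permutation, 0.075 adjusted). After the genotype means were taken out, r was -0.83, and without CD44KO replicates 2 and 3, the 2 arrays farthest from the median of Nr0b2, it was -0.69. With Cyp7a1 the relation was weaker, r = -0.50 (permutation p = 0.14) and rho = -0.14 (permutation p = 0.71), and r was 0.12 without those 2 arrays, so what there was rested on them.

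The other genes ran with Nr0b2. Baat gave r = 0.89 (permutation p = 0.0011, adjusted 0.0056) and rho = 0.90 (permutation p = 0.001, adjusted 0.0051), with r = 0.84 without those 2 arrays. Cyp7b1 gave r = 0.75 (permutation p = 0.013, adjusted 0.016) and rho = 0.62 (permutation p = 0.06, adjusted 0.075), with r = 0.66 without them. Cyp27a1 gave r = 0.75 (permutation p = 0.012, adjusted 0.016) and rho = 0.64 (permutation p = 0.054, adjusted 0.075), with r = 0.57 without them. With the genotype means taken out, r was 0.87 for Baat, 0.77 for Cyp7b1, 0.73 for Cyp27a1 and -0.42 for Cyp7a1. With the slide means taken out instead, r was 0.79 for Baat, 0.77 for Cyp7b1, 0.90 for Cyp27a1, -0.61 for Cyp8b1 and -0.55 for Cyp7a1, and no r was computed within a single genotype or slide, which hold at most 5 arrays.

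**Figure D3:**
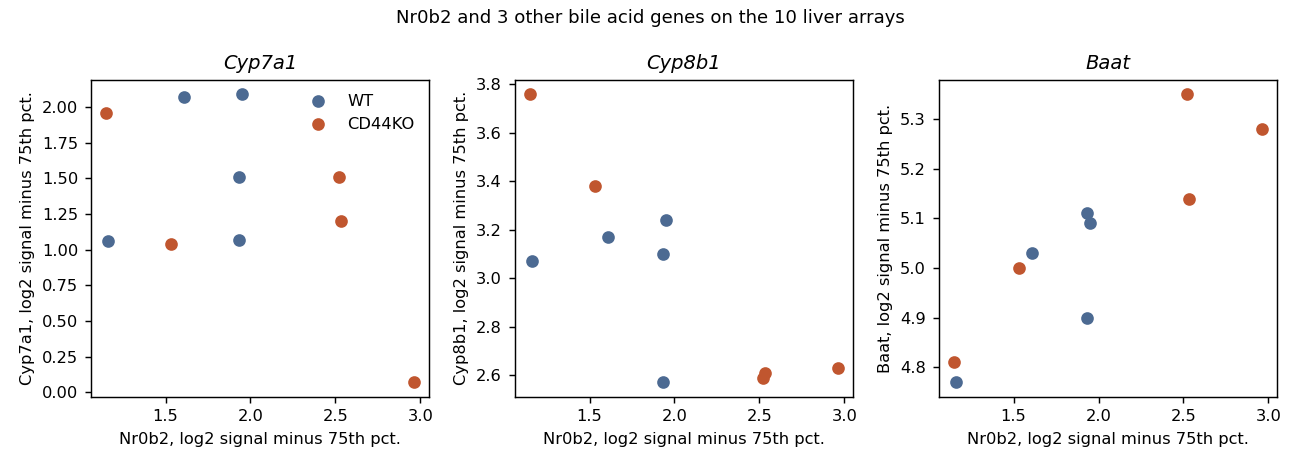
Level of Cyp7a1, Cyp8b1 and Baat (vertical axes) against Nr0b2 (horizontal axes) on the 10 liver arrays, all as log2 signal minus the 75th percentile, WT in blue and CD44KO in orange. The 3 arrays highest in Nr0b2 are CD44KO arrays with Cyp8b1 near 2.6, the array lowest in Nr0b2 has the highest Cyp8b1 (3.76), and Baat climbs with Nr0b2.

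The rest of the pathway was read through 52 further genes in 3 lists, 47 of which were tested in liver. The lists were chosen with earlier results of these data known, so the shares below describe them and do not test the pathway. Of the 47 genes tested, 8 were called, 6 higher and 2 lower, which is 17.0% against the 13.6% of probes called overall. The sign of the estimate was positive for 38 and negative for 9, against 61.3% positive over all probes, and the median log2 fold change was 0.25, against 0.08. Each of the 47 genes was read by its brightest probe, while all probes include dimmer ones and further probes of the same gene. The sign was also positive for 8 of the 9 hepatocyte markers left without Alb, which was saturated on 4 liver arrays. The median over all 10, with Alb, was 0.23. Slc51a, Fabp6 and Fgf15, genes known mainly from the ileum, were above background on no liver array, Vdr was above it on 2 WT arrays and no CD44KO array, and Slc10a5 was not on the array.

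In the transport list 5 of 14 tested genes were called. Abcg5 and Abcg8, the half-transporters that together secrete cholesterol into bile, changed with the smallest p of the pathway. The level of Abcg5 was 4.78, 5.06, 4.98, 5.09 and 5.30 in WT and 6.05, 6.11, 5.67, 6.23 and 6.12 in CD44KO, a rise of 0.99 (SE 0.12, adjusted p = 0.0045 by limma). Abcg8 was at -0.62, -0.29, -0.26, -0.32 and -0.11 in WT and at 0.43, 0.94, 0.39, 1.03 and 0.96 in CD44KO, a rise of 1.07 (SE 0.15, adjusted p = 0.00815 by limma), and its second probe rose by 0.93 (adjusted p = 0.0045 by limma). Neither gene's genotypes overlapped. The genes are transcribed away from each other on chromosome 17, and the 109 bases between their starts (RefSeq, chr17:84683012-84683120, plus strand) are shown because this stretch lies before both.
Abcg5 to Abcg8: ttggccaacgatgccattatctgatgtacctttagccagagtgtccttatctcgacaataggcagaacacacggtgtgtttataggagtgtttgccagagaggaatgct

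Slco1a1, an organic anion carrier of the sinusoidal membrane that is more abundant in male mice, had the largest difference of the pathway. Its levels were -4.94, -1.77, -1.56, -0.37 and -5.40 in WT, where 3 of 5 arrays were well above background, and from -0.74 to 2.69 in CD44KO, with a median of 1.37, where all were. CD44KO replicate 3 was again the lowest of its group and overlapped WT. Slco1a1 rose by 3.96 (SE 1.01, adjusted p = 0.0316 by limma), and a second probe gave 3.58 (adjusted p = 0.032 by limma). With WT replicates 1 and 5 near background, the size of the fold is uncertain.

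The transporters that were lower were Slc10a2 and Abcc4. Slc10a2, the apical sodium-dependent carrier known in liver from bile duct cells, lay between 0.95 and 1.36 in WT (median 1.14) and between 0.45 and 0.80 in CD44KO (median 0.66) without overlap. It fell by 0.53 (SE 0.10, adjusted p = 0.0161 by limma), and the second of its 3 probes fell by 0.47 (adjusted p = 0.017 by limma). Its dimmest probe gave -0.33 (adjusted p = 0.149 by limma). Abcc4, a basolateral exporter known to rise in cholestasis, lay between -1.60 and -0.55 in WT (median -0.92) and between -2.71 and -1.47 in CD44KO (median -1.86), so the genotypes overlapped, and fell by 0.92 (SE 0.25, adjusted p = 0.0394 by limma). The other Abcc4 probe, well above background on 3 WT arrays and 1 CD44KO array, gave -1.01 (adjusted p = 0.0594 by limma).

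Of the 15 further genes of synthesis 1 was called. Amacr, the racemase of side-chain oxidation, rose by 0.49 (SE 0.11, adjusted p = 0.0233 by limma), from 5.74 to 6.09 in WT to 6.18 to 6.65 in CD44KO, without overlap. In the control list 2 of 18 were called. Klb, beta-klotho, the co-receptor through which the gut hormone FGF15 acts on the hepatocyte, rose by 0.50 (SE 0.13, adjusted p = 0.0338 by limma), with levels from 1.58 to 2.10 in WT and from 2.15 to 2.66 in CD44KO. Nr1i3, the xenobiotic receptor CAR, rose by 0.59 (SE 0.17, adjusted p = 0.0477 by limma), with levels from 2.48 to 3.19 in WT and from 3.17 to 3.80 in CD44KO, which overlapped.

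The partners of these genes did not pass by their brightest probe. Fgfr4, the receptor that pairs with beta-klotho, differed by 0.36 (SE 0.13, adjusted p = 0.0959 by limma). Nr5a2, which encodes LRH-1, differed by 0.25 (SE 0.12, adjusted p = 0.181 by limma). Hnf4a, a hepatocyte transcription factor needed for Cyp7a1 and Cyp8b1, differed by 0.27 (SE 0.09, adjusted p = 0.0772 by limma), while its second probe rose by 0.45 (adjusted p = 0.024 by limma) and its dimmest gave 0.24 (adjusted p = 0.335 by limma). Rxra, the partner with which FXR binds DNA, gave 0.37 by its brighter probe (adjusted p = 0.0656 by limma) and 0.47 by its other probe, which was called (adjusted p = 0.0212 by limma). A probe other than the brightest was called for Slc27a2 and Prox1 too.

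**Figure D4:**
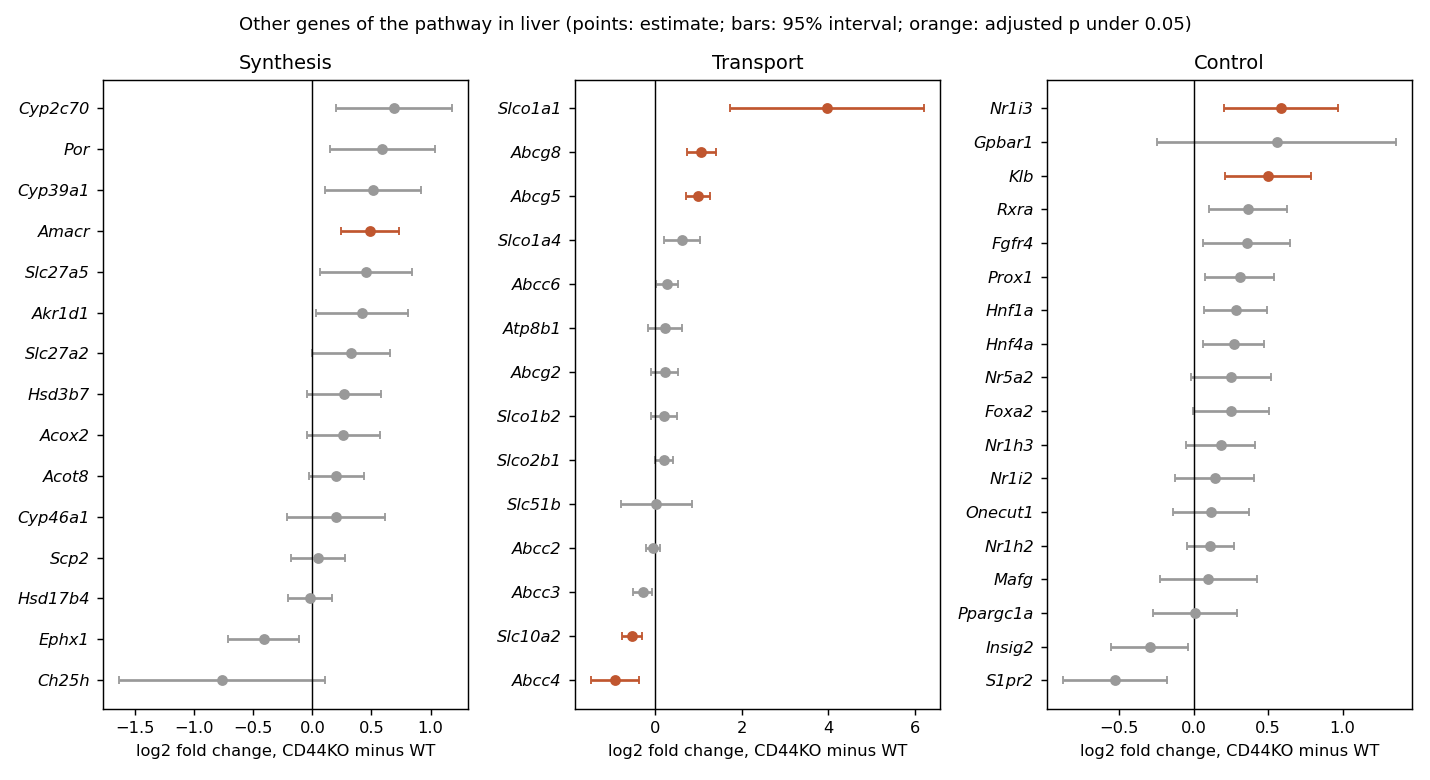
Log2 fold change in liver, CD44KO minus WT, of the 47 further pathway genes that were tested, by list (synthesis, transport, control), with the 95% interval as bars and genes called by limma in orange. The horizontal scales differ between the panels. Most points lie to the right of 0, and Slco1a1 lies far beyond the others.

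These were whole tissues, in which fewer cells of a type and less RNA per cell cannot be told apart, so the marker genes of the liver's cells are given beside the bile acid genes. Of 10 hepatocyte markers 1 was called, Serpina6 at 0.78 (adjusted p = 0.0454 by limma), and 5 had an unadjusted p under 0.05. Alb was saturated on 4 of the 10 liver arrays, so its difference is not read. The summed linear level of the other 9 hepatocyte markers ran from 2303 to 2827 in WT and from 2673 to 3069 in CD44KO, which overlapped. Of 7 bile duct markers tested 1 was called, Sox9 at -0.70 (adjusted p = 0.0497 by limma), with a list median of -0.40 and a summed level from 2.16 to 3.16 in WT and from 1.85 to 2.24 in CD44KO. Cftr and Cldn4 were above background on no liver array.

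Markers of other cells were also called. Among markers of stellate cells and their matrix 5 of 8 were called lower (list median -0.65). Their summed level was 94.2 to 134 in WT and 65.8 to 90.1 in CD44KO and did not overlap. T cell markers were called lower for 4 of 8 (list median -0.53), macrophage markers lower for 2 of 8 (-0.35), and Kupffer cell markers higher for 2 of 6 (1.71). The summed levels of these lists overlapped between the genotypes. For T cell markers they were 2.45 to 3.96 in WT and 2.01 to 2.73 in CD44KO. Macrophage markers gave 51.5 to 115 in WT and 43.3 to 128 in CD44KO, and Kupffer cell markers 28.1 to 84.2 and 72.2 to 189. By sign alone, 7 of 8 stellate, 6 of 8 T cell and 5 of 8 macrophage markers were lower, and all 6 Kupffer cell markers were higher. Over all probes tested in liver, 5.75% were called lower and 7.85% higher. Of the 8 pericentral genes 1 was called higher and 1 called lower, while by sign 4 were higher and 4 lower. None of the 8 periportal and none of the 9 clock genes tested passed by limma, with unadjusted p under 0.05 for 3 and 1 of them. The part of these cells in the differences of the bile acid genes was not tested.

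In WAT, which served as the contrast, none of the 7 members that were tested was called by limma, and none had an unadjusted p under 0.05, which 14.9% of all probes tested had. Of those 27653 probes in WAT 0.0398% were called, so a genotype difference rarely passed there whatever the gene. Cyp7a1, Cyp8b1 and Nr0b2 were well above background on at most 1 array of a genotype and were not tested. The lowest adjusted p was that of Nr1h4 (0.399), which differed by -0.50 (95% interval -1.08 to 0.09).

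The levels of Slc10a1, Abcb11 and Baat spread widely in WAT, as did that of the hepatocyte gene Alb, which ranged from 0.61 to 5.17 across the 10 arrays. Slc10a1 was at -3.41, -4.37, -7.52, -4.35 and -6.67 in WT WAT and at -6.52, -8.18, -3.31, -4.01 and -4.10 in CD44KO WAT. WT replicates 3 and 5, which had the lowest Alb (0.61 and 1.12), also had the lowest Abcb11 (-4.42 and -4.18) and the lowest Baat (-7.64 and -6.69). CD44KO replicate 3, with the highest Alb, had the highest Slc10a1 (-3.31) and the highest Abcb11 (-0.45). The order was not the same throughout. The lowest Slc10a1 (-8.18) was on CD44KO replicate 2, where Alb was 2.60. The highest Baat (-2.54) was on WT replicate 1, where Alb was 2.90 and 89.5% of spots were well above background. Baat was nearly as high on WT replicate 2 (-2.55, with Alb at 4.66) and on CD44KO replicate 3 (-2.60, with Alb at 5.17). The summed level of the hepatocyte markers varied from 3.65 to 46.5 in WT WAT and from 10.8 to 64.3 in CD44KO WAT, against 3321 or more in every liver. The part of hepatocyte RNA in these WAT levels was not tested.

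Cyp27a1, Cyp7b1, Abcb4, Nr1h4 and Abcb11 were well above background on all 10 WAT arrays, and all of these but Abcb11 kept a narrower range. Cyp27a1 lay between -1.02 and 0.03 in WT (median -0.41) and between -1.11 and -0.49 in CD44KO (median -0.63). Cyp7b1 lay between -1.04 and -0.28 in WT (median -0.70) and between -0.59 and -0.49 in CD44KO (median -0.55), and its difference of 0.19 had an adjusted p of 0.575 by limma. Abcb4 lay between 1.02 and 2.34 in WT and between 1.69 and 2.63 in CD44KO. Nr1h4 lay between -2.67 and -1.90 in WT and between -3.53 and -2.16 in CD44KO. The tissues were read on different scanners, so the tissue and the scan cannot be told apart in any level set across them.

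**Figure D5:**
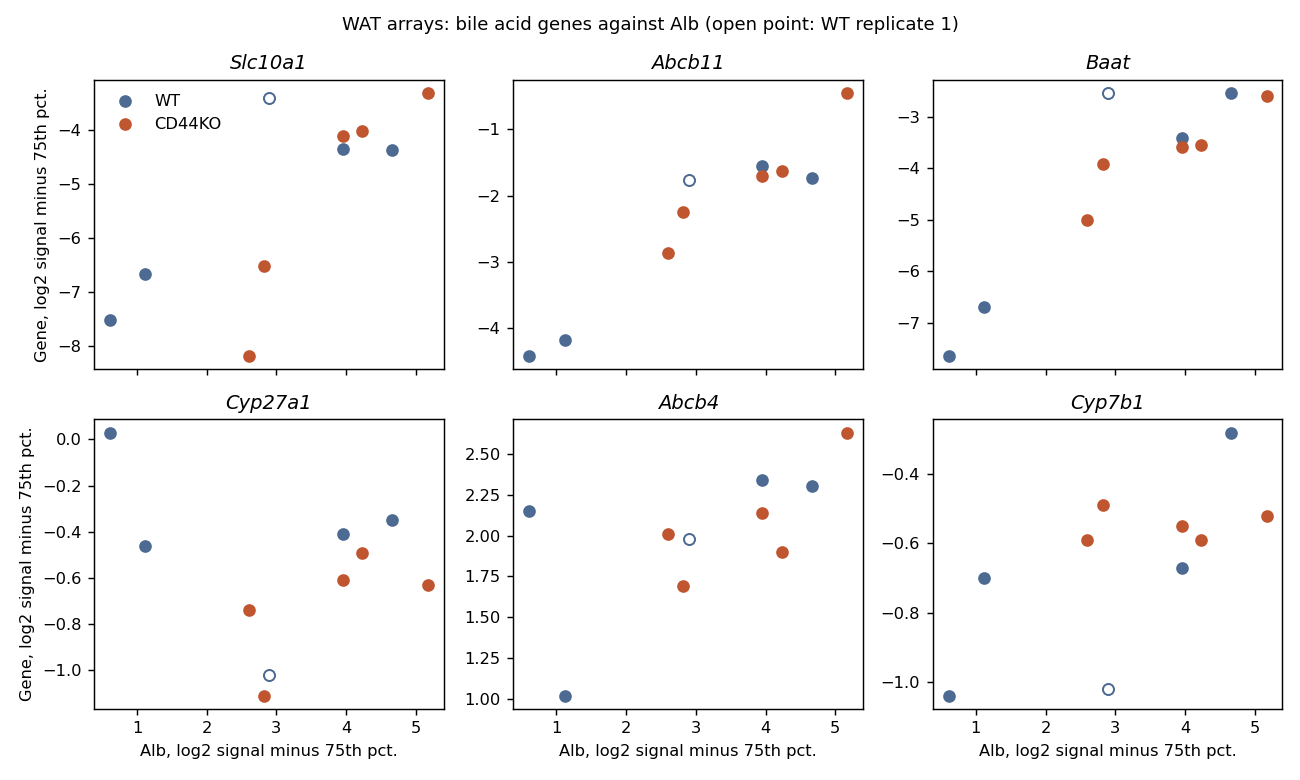
Level of 6 bile acid genes (vertical axes) against Alb (horizontal axis) on the 10 WAT arrays, as log2 signal minus the 75th percentile, WT in blue, CD44KO in orange and WT replicate 1 as an open point. The vertical scales differ between the panels. The 2 arrays lowest in Alb are also the lowest in Abcb11 and Baat, while Slc10a1 is lowest on another array (-8.18).

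Whether the genotype acted differently in the 2 tissues was tested by the interaction over all 20 arrays, in which 1.15% of 28988 probes were called. The fit took the 20 arrays as independent. Whether liver and WAT came from the same mice is not given in the sources used here. No member was called by limma, and 3 had an unadjusted p under 0.05, against 15.8% of all probes. The effect on Nr1h4 was 0.96 higher in liver than in WAT (SE 0.29, adjusted p = 0.105 by limma). For Cyp27a1 that difference was 0.68 (SE 0.25, adjusted p = 0.193 by limma) and for Cyp7b1 0.73 (SE 0.31, adjusted p = 0.267 by limma). For Slc10a1, the member with the lowest adjusted p in liver, it was 0.75 with a 95% interval of -1.67 to 3.17, since its WAT levels spread so widely. A change in liver alone is therefore not shown for any of the 10 genes.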

How the data were processed

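Single-dye (Cy3) arrays were read by Agilent Feature Extraction 9.5.3.1, and its processed intensity, on a linear scale, was deposited by the authors both in scanner files and in a series table. Both held equal values on all 20 arrays. The software had subtracted a fitted spatial surface and had put estimates in place of the dimmest signals. The signals had not been scaled between arrays. A spot was well above background where it exceeded it by 13 SD, per the file headers, which name build mm7.

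Outlier spots were left out, the array's 75th percentile was subtracted on the log2 scale, and spots of a probe were averaged. In each tissue CD44KO was set against WT with lmFit and eBayes (limma 3.58.1, R 4.3.3) with Benjamini-Hochberg adjustment, and single genes also by the exact permutation test. All 10 genes are named, with pathway genes that were called (at most 15) and Nr5a2, Hnf4a, Fgfr4 and Klb. Brightest probes were taken over the liver arrays. Members and lists were chosen with earlier results of these data known. Of 41174 probes, 22951 matched the reference by accession. The script was checked on simulated data. Each array is labelled as a sample of one group, and whether RNA was pooled is not given in the sources used here. The number of arrays limits the precision.

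Within a tissue, replicate numbers did not pair WT with CD44KO arrays, and a pairing of liver with WAT arrays was not tested. The alternatives were normexp (offset 50), quantile and median scaling, outlier spots kept, other filters, array weights, slide and replicate blocks, all arrays in one fit, and leaving out each array.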

Additional observations from a re-analysis of the deposited data

Results flagged for a closer look

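In 3 of the 40 groups of 5 arrays (10 genes in 4 groups), 1 array stood far from its nearest neighbour for the range of its group, by Dixon's test. Chance flags about 1 group in 20, or about as many as were found. Cyp8b1 in WT liver was lowest on replicate 3, at 2.57, with the others between 3.07 and 3.24. Abcb4 in WT WAT was lowest on replicate 5, at 1.02, with the others between 1.98 and 2.34. Nr0b2 in WT WAT was highest on replicate 1, at -0.98, with the others between -8.86 and -7.00. That array is the one on which 89.5% of spots were well above background.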

How the results depend on the processing

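Of the 10 members, 4 were called in liver. The number was 0 with normexp, 1 without the filter, 1 with a replicate block and 1 in the fit of all 20 arrays (Slc10a1 without the filter and with the replicate block, Cyp7b1 in the fit of all arrays), 4 with the slide block (Cyp27a1 in place of Abcb4), and 1 to 5 when an array was left out (5 without CD44KO replicate 3). The 8 pathway genes called became 5 with normexp, 3 without the filter, 14 with array weights, 15 with the slide as a random block, 5 with the replicate block, 2 in the fit of all arrays, and 3 to 16 with an array left out (16 without CD44KO replicate 3, 3 without WT replicate 1 or 2 or CD44KO replicate 4 or 5). The 3358 probes called in liver became 641 (normexp), 1027 (no filter), 1329 (replicate block), 723 (all arrays) and 858 to 4647 (an array left out). The 11 in WAT became 35 (normexp), 19 (median scaling), 3 (no filter), 2831 (array weights), 4 (slide block), 3 (replicate block), 1817 (all arrays) and 3 to 19. No member was called in WAT under any alternative, and the interaction called 2 with array weights and 0 to 1 with an array left out. The cause of these shifts was not tested.

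In liver 209 of 213 member values kept their sign. Cyp8b1 turned without WT replicate 4 (0.02) and CD44KO replicates 1, 2 or 4, in a range of -0.2265 to 0.065 over arrays left out. In WAT 14 of 147 turned: Cyp27a1 with median scaling (0.21), Slc10a1 with normexp (-0.059), the slide block (-0.0567) and 5 arrays left out (range over all -0.5213 to 0.7809), Abcb4 with quantile scaling (-0.0417), array weights (-0.0629), its second probe (-0.48) and 2 arrays left out (range over all -0.12 to 0.21), and Nr1h4 with quantile scaling (0.0795). Each slide had 1 scan, so the scan as a block is the slide block and was not run. Same-numbered WT and CD44KO arrays, as deviations from their group means, correlated from -0.04 to 0.42 in liver and -0.21 to 0.09 in WAT.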
